A study of Mus musculus with 9 samples.

Results

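The genes described here are 45 complement and coagulation genes of mouse liver, 25 of complement and 20 of coagulation with its inhibitors and fibrinolysis. They were chosen by symbol, with no threshold on a measured value, and each symbol stood on exactly 1 of the 55414 Ensembl features of the table. Of the 45 members, 44 had a mean of at least 1 TPM over the 9 libraries and entered the test. The other was C7, which was listed at no more than 0.380 TPM in any library. TPM is a relative transcript abundance already divided by transcript length, so that levels of different genes can be set side by side. All libraries came from livers of NSG mice, an immunodeficient strain without mature T, B and NK cells but with macrophages and neutrophils, whose genotype the labels give as WT; age and sex are not stated by the labels. One group of 3 libraries came from mice given phosphate-buffered saline (PBS) by the tail vein. Another 3 followed extracellular vesicles (EVs) of MCF-10A, a human breast epithelial line that forms no tumors. The last 3 followed EVs shed by the triple-negative breast cancer line MDA-MB-231, also human. Injections went on for 5 weeks in every group. Whether each library came from its own mouse is not stated, so the p-values weigh effects against library-to-library spread alone, which may be technical.

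Complement and coagulation are cascades of plasma proteases, and hepatocytes make most of both. In complement, C1q bound to antibody or mannose-binding lectin bound to sugars starts a chain that splits C4, C2 and then C3, the alternative pathway amplifies it through factor B and properdin, and C5 to C9 assemble a pore. In coagulation, factors that need vitamin K for their carboxylation lead to thrombin, which turns fibrinogen into fibrin, while antithrombin, protein C and plasmin hold it in check. Fibrinogen, C3 and factor B are known as acute phase proteins, whose synthesis rises in inflammation under interleukin 6 and interleukin 1. C1q and properdin are exceptions among the members, being made mainly by macrophages and other myeloid cells.

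Hepatocyte markers were present throughout, with 8 of 8 above a mean of 1 TPM and albumin (Alb) between 13114 and 65814 TPM per library. Some libraries stood apart from the rest of their group, by genes chosen after their values were seen. PBS 1 and MDA-MB-231 EV 3 held 750.1 and 789 TPM of Mug2, a secreted protease inhibitor, where the other 7 held at most 32.1 TPM. MCF-10A EV 1 held 28586 TPM of the serum amyloid gene Saa1 against at most 1211 TPM elsewhere. Mitochondrially encoded genes took 26.3% of TPM in PBS 1 and between 4.96% and 12.1% in the other 8 libraries. Values of 3 libraries are given below in the order of their replicate numbers.

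None of the 44 tested members passed the threshold in any of the 3 comparisons. The test was limma on log2(TPM + 1), called at a Benjamini-Hochberg adjusted p under 0.05 over all 12860 tested genes, and every member had an adjusted p of 1. Over all genes 0.00% were called in MDA-MB-231 EV versus PBS, 0.218% in MDA-MB-231 EV versus MCF-10A EV and 0.194% for MCF-10A EV versus PBS. At an unadjusted p under 0.05 stood 1 member in the first comparison (F13b), 2 in the second (C9 and C3) and 0 in the third, beside 1.55%, 3.83% and 3.20% of all tested genes. For MDA-MB-231 EV versus PBS, 4 of 44 members lay wholly above the PBS libraries (F10, F12, Proc and C6) and 0 wholly below them, beside 5.23% and 0.801% of all tested genes. For MDA-MB-231 EV versus MCF-10A EV, 3 tested members were wholly higher (F12, Proc and Masp2) and 1 wholly lower (C9), beside 4.73% and 1.80%. For MCF-10A EV versus PBS, 2 were wholly higher (Plg and Cfb) and 0 wholly lower, beside 2.95% and 4.74%. The comparisons share their groups in pairs, so these counts are not independent of each other. In the plot of log2 changes most error bars reach or cross the median of all genes.

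**Figure D1:**
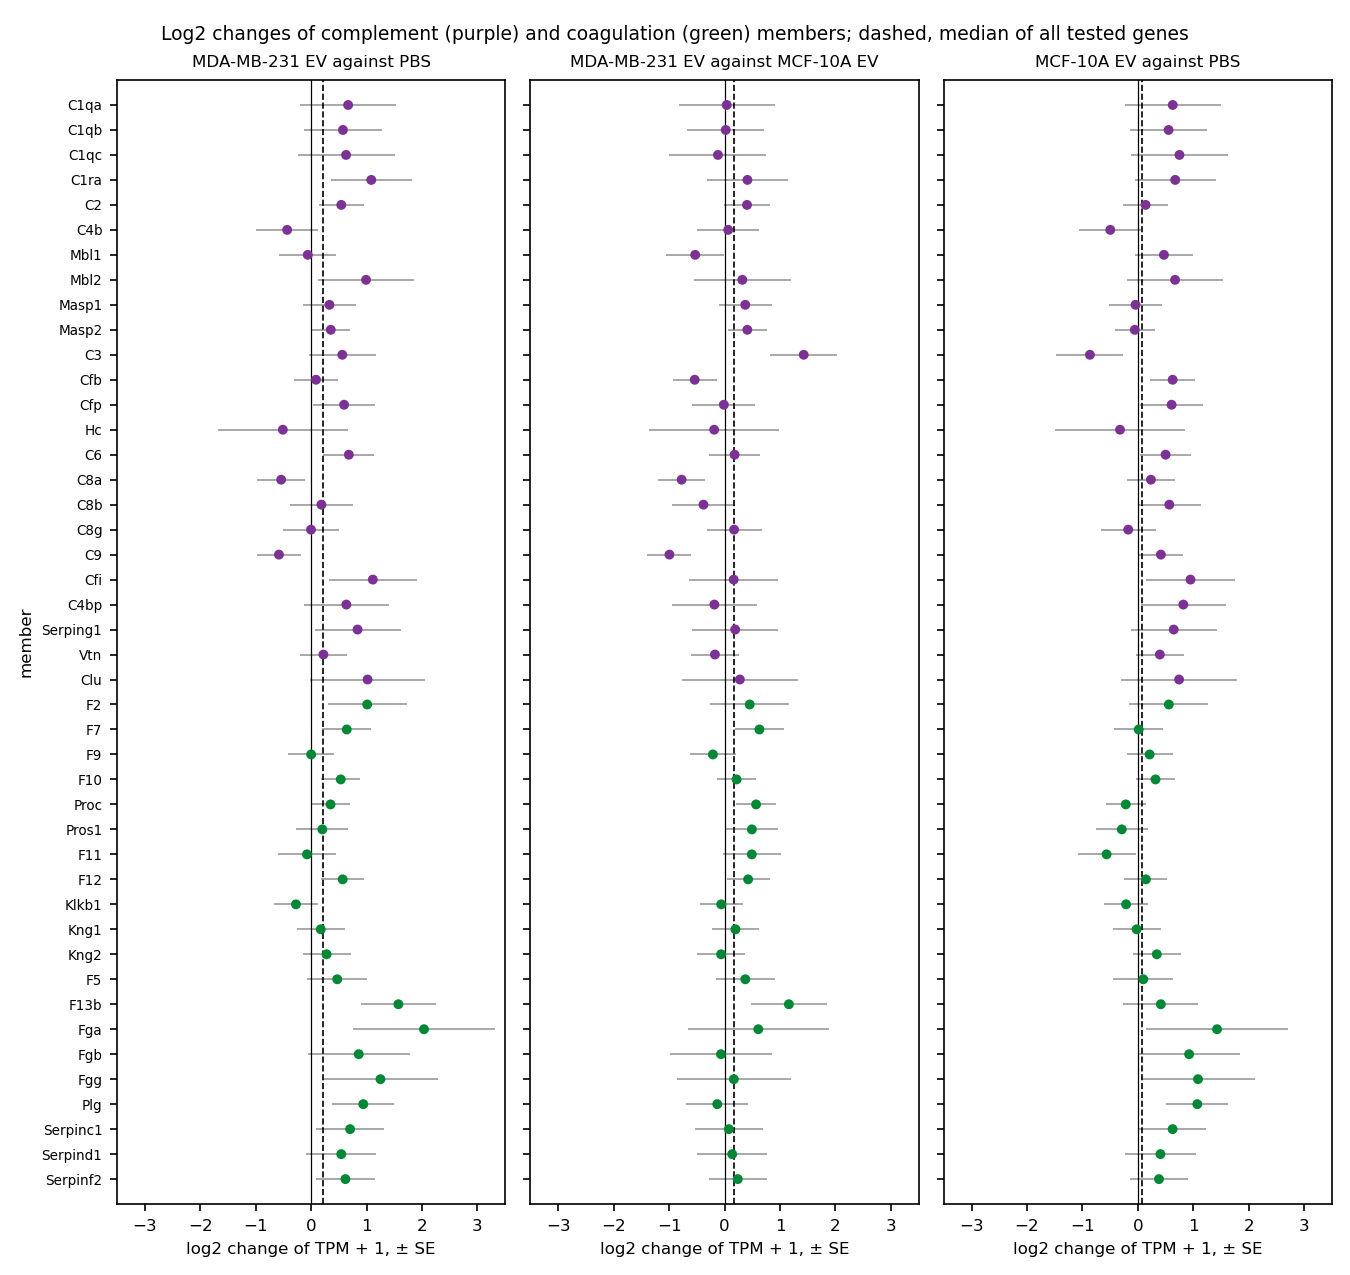
Log2 change of each of the 44 tested members (points, x axis, log2 of TPM + 1) with its SE (bars) in 3 comparisons, complement in purple and coagulation in green. The dashed line is the median of all tested genes, at 0.21, 0.17 and 0.07 from left to right; Fga has the highest change against PBS, at 2.04 ± 1.27, and one of the widest SEs.

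Members differed widely between libraries, also within a group. The highest library exceeded the lowest by between 1.67-fold (F10) and 54.7-fold (Fga) for the 44 tested members, with a median of 4.04-fold, and by over 5-fold for 19 of them. MDA-MB-231 EV 1 was the highest library for 19 of the 45 members and MCF-10A EV 1 for 12, where they were highest for 26.9% and 18.6% of all tested genes. PBS 1 was the lowest library for 21 members, beside 22.0% of all tested genes. Of the 25 complement members 16 were highest in one of those 2 EV libraries, and of the 20 coagulation members 15.

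**Figure D2:**
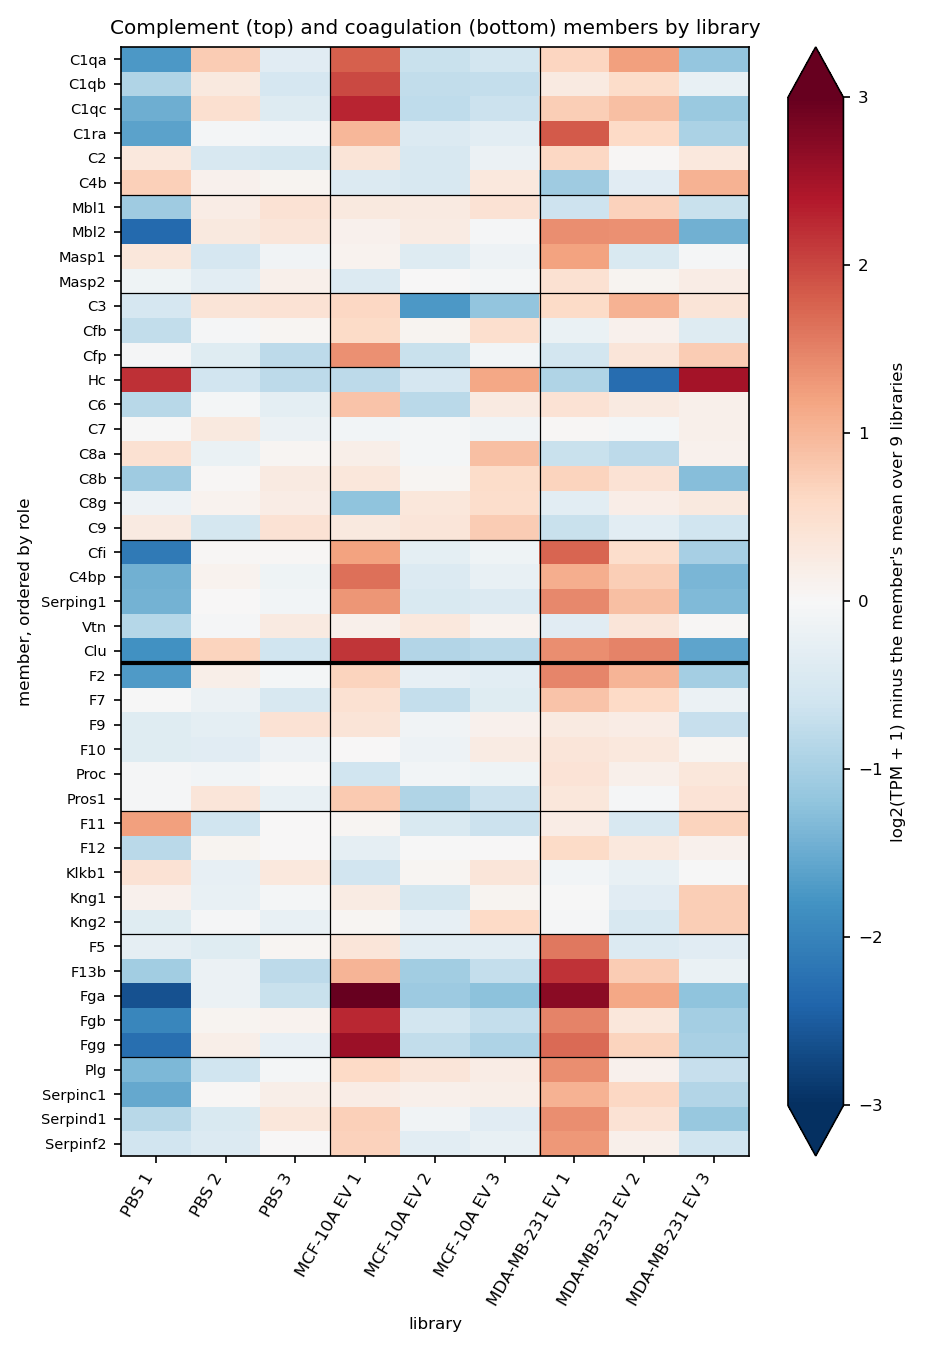
Log2(TPM + 1) of each member (rows, by role, complement above the thick line and coagulation below it) minus its own mean over the 9 libraries (columns), with red above and blue below that mean. The fibrinogen rows Fga, Fgb and Fgg are red in MCF-10A EV 1 and MDA-MB-231 EV 1 and blue in PBS 1, and the Hc row is red in PBS 1 and MDA-MB-231 EV 3.

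Of the classical pathway, 0 of 6 members passed in any comparison, and the C1q chains varied between the libraries of every group. C1qa was at 19.7, 114 and 53.01 TPM after PBS, 236, 41.8 and 45.5 TPM after MCF-10A EVs and 105, 158 and 29.4 TPM after MDA-MB-231 EVs. C1qb and C1qc, which code for the other chains of the same hexameric recognition protein, ranged from 42.3 to 319 and from 17.7 to 252 TPM. All 3 chains were highest in MCF-10A EV 1 and lowest in PBS 1, and the groups overlapped. The log2 changes of C1qa were 0.67 ± 0.86 for MDA-MB-231 EV versus PBS, 0.04 ± 0.86 for MDA-MB-231 EV versus MCF-10A EV and 0.63 ± 0.86 for MCF-10A EV versus PBS. Kupffer cells, macrophages that reside in liver, express C1q, and in bulk RNA fewer cells of a type and less RNA per cell cannot be told apart. The 8 Kupffer markers, all with a mean of at least 1 TPM, summed to 208 to 417 TPM after PBS, 199.6 to 1362 TPM after MCF-10A EVs and 464 to 504 TPM after MDA-MB-231 EVs. MCF-10A EV 1 was the highest there as well, but its markers went apart. The scavenger receptor Marco was at 804 TPM in it and at most 120.0 TPM elsewhere, while Clec4f, a lectin that defines Kupffer cells, was at 0.610 TPM in it and at least 96.5 TPM in the other 8. Of the 8 Kupffer markers 8 were above 0 in MDA-MB-231 EV versus PBS, beside 69.7% of all tested genes. In MDA-MB-231 EV versus MCF-10A EV 6 of 8 were, beside 65.0%, and in MCF-10A EV versus PBS 5 of 8, beside 56.8%. Of these markers 0 passed the threshold. The part of Kupffer cells in the C1q values was not tested.

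C1ra codes for the protease C1r, which C1q activates. C1ra was at 13.5, 41.04 and 40.6 TPM after PBS, 87.03, 32.02 and 34.3 TPM after MCF-10A EVs and 158, 66.1 and 21.7 TPM after MDA-MB-231 EVs. Its log2 changes were 1.09 ± 0.73 for MDA-MB-231 EV versus PBS, 0.41 ± 0.73 for MDA-MB-231 EV versus MCF-10A EV and 0.67 ± 0.73 for MCF-10A EV versus PBS. C1rb is its near copy, looked up after these values were seen, and the authors' treatment of reads shared by both is not stated in any source used here. C1rb was at 713, 394 and 601 TPM after PBS, 349, 549 and 779 TPM after MCF-10A EVs and 83.1, 291 and 522 TPM after MDA-MB-231 EVs. C1ra made up 65.5% of the sum of both in MDA-MB-231 EV 1 and between 1.86% and 19.96% in the other 8 libraries. The sum was lowest, at 241 TPM, in the same library where C1ra alone was highest, so the values of C1ra by itself are uncertain.

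**Figure D3:**
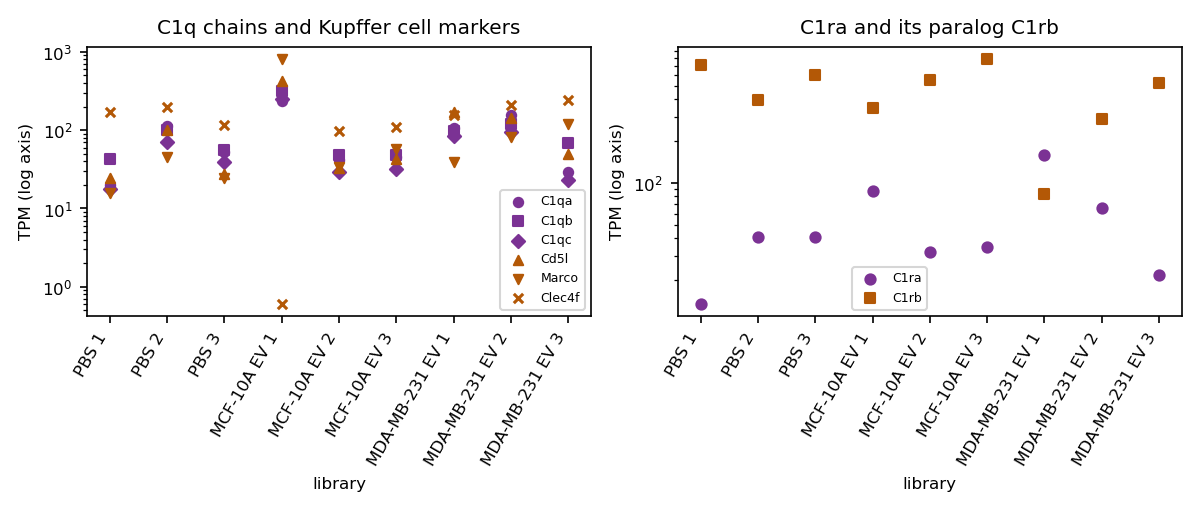
TPM on a log axis in each library (x axis): at left the chains C1qa, C1qb and C1qc (purple) with the Kupffer cell markers Cd5l, Marco and Clec4f (orange), at right C1ra and its paralog C1rb. In MCF-10A EV 1 the C1q chains and Marco are at their highest and Clec4f at 0.610 TPM; MDA-MB-231 EV 1 is the library in which C1ra exceeds C1rb, at 158 against 83.1 TPM.

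C2 and C4b code for the parts of the classical C3 convertase. C2 was at 73.5, 42.3 and 40.8 TPM after PBS, 77.7, 41.8 and 52.4 TPM after MCF-10A EVs and 90.7, 60.1 and 73.6 TPM after MDA-MB-231 EVs. C4b was at 3700, 2468 and 2387 TPM after PBS, 1708, 1622 and 2787 TPM after MCF-10A EVs and 1071, 1784 and 4644 TPM after MDA-MB-231 EVs. C4b was highest in MDA-MB-231 EV 3 and PBS 1, and its groups overlapped. The log2 changes of C4b were -0.43 ± 0.56 for MDA-MB-231 EV versus PBS, 0.07 ± 0.56 for MDA-MB-231 EV versus MCF-10A EV and -0.50 ± 0.56 for MCF-10A EV versus PBS. Its near copy C4a was at 7.81 to 65.7 TPM, and C4b held between 98.2% and 99.4% of the sum of both. For C2 the log2 changes were 0.54 ± 0.41, 0.41 ± 0.41 and 0.14 ± 0.41 in the order of comparisons used for C4b.

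The lectin pathway had 0 of 4 members past the threshold. Mbl2, a mannose-binding lectin, was found at 60.4, 377 and 397 TPM with PBS, 334, 366 and 301 TPM with MCF-10A EVs and 811, 789 and 112 TPM with MDA-MB-231 EVs. It was lowest in PBS 1 and MDA-MB-231 EV 3. Mbl1 was at 87.9, 214 and 247 TPM after PBS, 225, 222 and 248 TPM after MCF-10A EVs and 119, 298 and 116 TPM after MDA-MB-231 EVs. Mbl1, the other mannose-binding lectin, was also low in those 2 libraries and in MDA-MB-231 EV 1, where Mbl2 was at its highest: the ratio of Mbl2 to Mbl1 was 6.82 there and between 0.686 and 2.64 in the rest. The log2 changes of Mbl2 were 0.99 ± 0.87 for MDA-MB-231 EV versus PBS, 0.32 ± 0.87 for MDA-MB-231 EV versus MCF-10A EV and 0.67 ± 0.87 for MCF-10A EV versus PBS. For Mbl1 they were -0.06 ± 0.52, -0.53 ± 0.52 and 0.47 ± 0.52. Masp2, the lectin-bound protease that splits C4 and C2, stood at 141, 123 and 172 TPM with PBS, 115, 156 and 147 TPM with MCF-10A EVs and 212, 163 and 181 TPM with MDA-MB-231 EVs. The MDA-MB-231 EV libraries lay above all MCF-10A EV libraries (log2 change 0.41 ± 0.36, limma adjusted p = 1). Masp1, its partner protease, ranged from 21.1 to 71.4 TPM.

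C3, on which all activation routes meet, had the highest mean of the 45 members. C3 was at 1930, 3539 and 3653 TPM after PBS, 4172, 824 and 1196 TPM after MCF-10A EVs and 4033, 5634 and 3538 TPM after MDA-MB-231 EVs. MCF-10A EV 2 and 3 were the lowest libraries, while MCF-10A EV 1 was exceeded only by MDA-MB-231 EV 2. The change in MDA-MB-231 EV versus MCF-10A EV was 1.43 ± 0.60 on the log2 scale (limma adjusted p = 1). In MCF-10A EV versus PBS it was -0.87 ± 0.60. Over the alternatives computed, 1 member call was made: with limma's array weights, which count libraries that differ from their group for less, C3 fell by 1.66 log2 units in MCF-10A EV versus PBS, at an adjusted p of 0.00674. That setting called 4.26% of all tested genes in this comparison, 548 of 12860, so 1 of 44 members is no more than the background. Factor B, the protease of the alternative convertase, is coded by Cfb. Cfb was at 735, 1189 and 1260 TPM after PBS, 1809, 1289 and 1738 TPM after MCF-10A EVs and 1067, 1340 and 926 TPM after MDA-MB-231 EVs. All MCF-10A EV libraries lay above all PBS libraries for Cfb, with a log2 change of 0.63 ± 0.40 (limma adjusted p = 1), and in the other comparisons the change was 0.09 ± 0.40 (MDA-MB-231 EV versus PBS) and -0.54 ± 0.40 (against MCF-10A EV). Properdin, which stabilizes that convertase, is coded by Cfp. Cfp was at 59.4, 47.2 and 35.2 TPM after PBS, 159.7, 38.4 and 57.9 TPM after MCF-10A EVs and 41.5, 79.5 and 105 TPM after MDA-MB-231 EVs. Its highest value was again in MCF-10A EV 1, and the 6 neutrophil markers summed to 4569 TPM there and to at most 214 TPM elsewhere. Their part in the Cfp value was not tested.

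Of the 7 genes of the terminal pathway 6 were tested and 0 passed. Hc, the gene of C5, varied most of the tested complement members, by 28.3-fold. Hc was at 552, 80.7 and 69.96 TPM after PBS, 69.8, 84.3 and 269.7 TPM after MCF-10A EVs and 63.9, 24.1 and 681 TPM after MDA-MB-231 EVs. PBS 1 and MDA-MB-231 EV 3, the libraries with high Mug2, were the highest, MCF-10A EV 3 came next, and every group held both low and high libraries. The log2 changes were -0.51 ± 1.17 for MDA-MB-231 EV versus PBS, -0.19 ± 1.17 for MDA-MB-231 EV versus MCF-10A EV and -0.32 ± 1.17 for MCF-10A EV versus PBS, with SEs above each change. As background, the NOD strain from which NSG mice derive carries a small deletion in the coding sequence of Hc and makes no functional C5; the allele was not examined here, and an RNA level does not report it.

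C9, the subunit that polymerizes into the pore, had the smallest p of the complement members. C9 was at 299, 171 and 334 TPM after PBS, 303, 318 and 422 TPM after MCF-10A EVs and 156, 199 and 165 TPM after MDA-MB-231 EVs. The MDA-MB-231 EV libraries lay below all MCF-10A EV libraries, at 173 ± 22.8 against 348 ± 65.2 TPM (SD, n = 3), a log2 change of -0.99 ± 0.40 (limma adjusted p = 1). Against PBS, the change was -0.58 ± 0.40 with overlap. C8a was at 314, 199.8 and 238 TPM after PBS, 260.4, 219 and 426 TPM after MCF-10A EVs and 145, 134 and 249 TPM after MDA-MB-231 EVs. C8a, the alpha chain of C8, was thus lower in MDA-MB-231 EV 1 and 2 than in all libraries of the other groups, but not in MDA-MB-231 EV 3, and its log2 changes were -0.54 ± 0.43 against PBS and -0.77 ± 0.43 against MCF-10A EV. C8b and C8g, the other chains of C8, ranged from 18.6 to 74.95 and from 188 to 621 TPM. C6, which joins C5b first, had low levels. C6 was at 4.28, 8.08 and 6.63 TPM after PBS, 16.1, 4.38 and 10.2 TPM after MCF-10A EVs and 11.8, 10.3 and 9.40 TPM after MDA-MB-231 EVs. All MDA-MB-231 EV libraries lay above the PBS libraries (log2 change 0.68 ± 0.46, limma adjusted p = 1), and the scale of log2(TPM + 1) understates changes at such levels.

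The complement regulators had 5 of 5 members above 0 in both EV groups against PBS, beside 69.7% (MDA-MB-231 EV) and 56.8% (MCF-10A EV) of all tested genes, and 0 past the threshold. With array weights all 5 were below 0 in MCF-10A EV versus PBS, from -0.22 to -0.0079, and Vtn was below 0 in MDA-MB-231 EV versus PBS as well, at -0.19. Vtn was below 0 in MDA-MB-231 EV versus PBS under other settings too, such as without PBS 1. Without MCF-10A EV 1 Clu was also below 0 in MCF-10A EV versus PBS, at -0.26. Clu codes for clusterin, which keeps the terminal complex in solution. Clu was at 94.1, 529 and 221 TPM after PBS, 1496, 182 and 190.4 TPM after MCF-10A EVs and 886, 936 and 111 TPM after MDA-MB-231 EVs. Its 15.9-fold range ran from PBS 1 to MCF-10A EV 1, and the log2 changes were 1.02 ± 1.04 for MDA-MB-231 EV versus PBS, 0.28 ± 1.04 for MDA-MB-231 EV versus MCF-10A EV and 0.74 ± 1.04 for MCF-10A EV versus PBS. Factor I, which inactivates C3b and C4b, is coded by Cfi. Cfi was at 49.9, 225 and 225 TPM after PBS, 509, 181 and 201 TPM after MCF-10A EVs and 744, 319 and 109.5 TPM after MDA-MB-231 EVs. Serping1 codes for C1 inhibitor, which acts on C1r, the contact proteases and kallikrein. Serping1 was at 107, 289 and 271 TPM after PBS, 723, 208 and 214 TPM after MCF-10A EVs and 786, 534 and 115 TPM after MDA-MB-231 EVs. C4bp, the cofactor that binds C4b, had nearly the same order of libraries as Serping1 at a lower level. C4bp was at 29.4, 88.7 and 75.1 TPM after PBS, 259, 60.9 and 69.8 TPM after MCF-10A EVs and 176, 137 and 30.8 TPM after MDA-MB-231 EVs. For these 4 genes MCF-10A EV 1 and the first and second MDA-MB-231 EV libraries were the 3 highest libraries and PBS 1 the lowest, and no pair of groups was free of overlap. The log2 changes against PBS after MDA-MB-231 EVs and after MCF-10A EVs were 1.11 ± 0.80 and 0.95 ± 0.80 for Cfi, 0.84 ± 0.78 and 0.65 ± 0.78 for Serping1, and 0.64 ± 0.77 and 0.82 ± 0.77 for C4bp. Vtn, the gene of vitronectin, had a narrower range, of 2.32-fold. Vtn was at 1388, 2435 and 3033 TPM after PBS, 2763, 3114 and 2710 TPM after MCF-10A EVs and 1968, 3221 and 2565 TPM after MDA-MB-231 EVs. Its change in MDA-MB-231 EV versus MCF-10A EV was -0.17 ± 0.43.

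Of the vitamin K dependent coagulation members 0 of 6 passed. Prothrombin, coded by F2, had the widest range among them. F2 was at 178, 660.1 and 561 TPM after PBS, 917, 489 and 469.9 TPM after MCF-10A EVs and 1594, 1185 and 287 TPM after MDA-MB-231 EVs. Each group reached over a wide range, and the log2 changes were 1.01 ± 0.71 for MDA-MB-231 EV versus PBS, 0.45 ± 0.71 for MDA-MB-231 EV versus MCF-10A EV and 0.56 ± 0.71 for MCF-10A EV versus PBS. Factor VII starts the tissue factor route. F7 was at 47.5, 41.99 and 34.05 TPM after PBS, 66.1, 28.9 and 36.5 TPM after MCF-10A EVs and 86.8, 73.1 and 41.8 TPM after MDA-MB-231 EVs. MDA-MB-231 EV 1 and 2 were the highest libraries for F7, and MDA-MB-231 EV 3 lay among the controls (log2 change 0.64 ± 0.44 against PBS and 0.63 ± 0.44 against MCF-10A EV). F10 and Proc varied far less. F10, the gene of factor X, was read at 279, 283 and 324 TPM with PBS, 361, 322 and 425 TPM with MCF-10A EVs and 464, 448 and 373 TPM with MDA-MB-231 EVs. The MDA-MB-231 EV libraries all lay above the PBS libraries, at 429 ± 48.9 against 295 ± 25.01 TPM (SD, n = 3), and the log2 change was 0.53 ± 0.35 (limma adjusted p = 1). Proc was at 492, 483 and 504 TPM after PBS, 335, 484 and 468 TPM after MCF-10A EVs and 674, 569 and 649 TPM after MDA-MB-231 EVs. Proc, the gene of the anticoagulant protein C, was thus higher in every MDA-MB-231 EV library than in every other library, with changes of 0.35 ± 0.36 against PBS and 0.57 ± 0.36 against MCF-10A EV. These small changes depend on the scaling: with median-of-ratios size factors, under which the median change of all genes is 0, the change against PBS was 0.28 for F10 and 0.10 for Proc. F9 ranged from 29.4 to 65.8 TPM and Pros1, the gene of protein S, from 13.8 to 46.4 TPM.

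The contact system, which starts coagulation on surfaces and releases bradykinin, had 0 of 5 members past the threshold. F12 was at 165, 307 and 294 TPM after PBS, 240.2, 288 and 291 TPM after MCF-10A EVs and 430.0, 359.5 and 316 TPM after MDA-MB-231 EVs. F12, the gene of Hageman factor, was higher in all MDA-MB-231 EV libraries than in all others, by 0.57 ± 0.39 against PBS and 0.43 ± 0.39 against MCF-10A EV on the log2 scale (limma adjusted p = 1 for both). F11 was at 119, 33.1 and 50.8 TPM after PBS, 52.3, 36.4 and 31.9 TPM after MCF-10A EVs and 59.5, 35.8 and 80.8 TPM after MDA-MB-231 EVs. F11, the gene of factor XI, was highest in PBS 1 and MDA-MB-231 EV 3, as Hc and C4b were, and its changes were -0.07 ± 0.52, 0.49 ± 0.52 and -0.57 ± 0.52 in the order MDA-MB-231 EV versus PBS, MDA-MB-231 EV versus MCF-10A EV and MCF-10A EV versus PBS. Klkb1 was at 90.9, 56.2 and 83.2 TPM after PBS, 44.6, 69.4 and 87.2 TPM after MCF-10A EVs and 63.5, 57.04 and 65.99 TPM after MDA-MB-231 EVs. Plasma prekallikrein, which Klkb1 codes for, had a log2 change of -0.27 ± 0.39 in MDA-MB-231 EV versus PBS. The kininogens Kng1 and Kng2 are paralogs whose reads may be hard to tell apart. Kng1 was at 2683, 2121 and 2370 TPM after PBS, 2910, 1704 and 2591 TPM after MCF-10A EVs and 2442, 1944 and 4080 TPM after MDA-MB-231 EVs. Kng2 was at 338, 425 and 372 TPM after PBS, 449, 366 and 659.6 TPM after MCF-10A EVs and 424, 312 and 720.5 TPM after MDA-MB-231 EVs. MDA-MB-231 EV 3 was the highest library for both, and the ratio of Kng1 to Kng2 stayed between 3.93 and 7.95.

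The fibrinogen genes Fga, Fgb and Fgg code for the alpha, beta and gamma chains of the clot protein and lie next to each other on chromosome 3. They had the widest differences between libraries among coagulation members, so their promoters are shown. RefSeq sequences were matched for 34 of the 45 members. Each window below holds 250 bases before and 50 after the annotated start, on build GRCm38.p6 of C57BL/6J, not the NSG genome. Capitals mark matches, on either strand, to CTGGGAA, the core of interleukin 6 response elements of STAT3, or to GTTAAT, a part of the palindromic site of the hepatocyte factor HNF1.
Fga promoter, chr3:83025903-83026202, plus strand: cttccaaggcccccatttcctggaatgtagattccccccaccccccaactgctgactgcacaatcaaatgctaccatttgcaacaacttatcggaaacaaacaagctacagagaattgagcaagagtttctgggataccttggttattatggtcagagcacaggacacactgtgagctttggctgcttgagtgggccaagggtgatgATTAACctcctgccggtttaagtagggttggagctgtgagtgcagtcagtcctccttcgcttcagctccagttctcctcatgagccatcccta
Fgb promoter, chr3:83049814-83050113, minus strand: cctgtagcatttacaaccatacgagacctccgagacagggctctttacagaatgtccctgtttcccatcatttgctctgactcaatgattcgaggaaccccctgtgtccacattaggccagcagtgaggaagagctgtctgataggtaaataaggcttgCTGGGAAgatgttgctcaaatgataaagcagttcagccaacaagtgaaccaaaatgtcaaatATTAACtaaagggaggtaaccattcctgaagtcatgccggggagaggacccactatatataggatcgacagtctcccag
Fgg promoter, chr3:83007474-83007773, plus strand: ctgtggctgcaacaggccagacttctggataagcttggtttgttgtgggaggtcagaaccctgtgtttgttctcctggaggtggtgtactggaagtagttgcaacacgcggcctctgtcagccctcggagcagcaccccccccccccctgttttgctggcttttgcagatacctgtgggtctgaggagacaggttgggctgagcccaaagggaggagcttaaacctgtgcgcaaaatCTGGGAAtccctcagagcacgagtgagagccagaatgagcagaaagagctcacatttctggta
CTGGGAA or its reverse complement begins 91 bases before the start of Fgb and 13 before that of Fgg, and Fga has no match. GTTAAT or its reverse complement begins 43 bases before the start of Fga and 29 before that of Fgb, with no match in Fgg. The STAT palindrome TTCNNNGAA, not capitalized, begins 234 bases before the start of Fga and 162 before that of Fgb. Among 32851 windows of the same length, 11.1% hold CTGGGAA, 7.10% GTTAAT and 8.30% TTCNNNGAA. Among the 35 windows of the 34 members, 9, 12 and 9 hold them. CTGGGAA and TTCNNNGAA overlap in some members, such as F9 and Masp2. A match describes letters only and shows no binding.

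Fga was at 95.8, 525 and 375 TPM after PBS, 5243, 278 and 253 TPM after MCF-10A EVs and 3889, 1323 and 256 TPM after MDA-MB-231 EVs. Fgb was at 195, 798 and 815 TPM after PBS, 3620, 519 and 461 TPM after MCF-10A EVs and 2121, 954 and 375 TPM after MDA-MB-231 EVs. Fgg was at 229, 1250 and 925 TPM after PBS, 6579, 665 and 579 TPM after MCF-10A EVs and 3609, 1768 and 563 TPM after MDA-MB-231 EVs. MCF-10A EV 1 was the highest and MDA-MB-231 EV 1 the next for each of the chains, MDA-MB-231 EV 2 came after them, and PBS 1 was the lowest. The other 2 libraries of the MCF-10A EV group lay below PBS 2 and PBS 3 for every chain. Fga had log2 changes of 2.04 ± 1.27 for MDA-MB-231 EV versus PBS, 0.61 ± 1.27 for MDA-MB-231 EV versus MCF-10A EV and 1.43 ± 1.27 for MCF-10A EV versus PBS. The SEs were of the order of the changes, and 0 of 3 chains passed. For Fgb the changes were 0.86 ± 0.92, -0.06 ± 0.92 and 0.92 ± 0.92, and for Fgg 1.25 ± 1.03, 0.17 ± 1.03 and 1.08 ± 1.03. Signs turned with the setting. In MCF-10A EV versus PBS the alternatives spanned -0.28 to 2.18 for Fga, -0.53 to 1.45 for Fgb and -0.41 to 1.70 for Fgg, and all 3 chains were below 0 both with array weights and without MCF-10A EV 1. For MDA-MB-231 EV versus MCF-10A EV they spanned -0.30 to 2.36, -0.67 to 1.09 and -0.45 to 1.51; there Fga and Fgg were below 0 without MCF-10A EV 2, MCF-10A EV 3 or MDA-MB-231 EV 1, and Fgg also with size factors (-0.041).

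The chains were not in 1 fixed ratio. The ratio of Fga to Fgb was 1.45, 1.83 and 1.39 in the 3 libraries with the most fibrinogen and between 0.460 and 0.682 in the other 6. High fibrinogen came with high serum amyloid in one library and without it in another. MCF-10A EV 1 held 28586 TPM of Saa1 and 3928 TPM of the acute phase lipocalin Lcn2. MDA-MB-231 EV 1 held 92.2 and 47.5 TPM, both below MDA-MB-231 EV 2 and PBS 2. Saa2, Hp and Orm1 were likewise lower in MDA-MB-231 EV 1 than in MDA-MB-231 EV 2 and PBS 2. Serpina3n, another acute phase gene, went the other way. It was at 961 TPM in MCF-10A EV 1, 839 TPM in MDA-MB-231 EV 1, 432 TPM in MDA-MB-231 EV 2 and at most 245 TPM elsewhere. The 17 genes of the acute phase list summed to 134172 TPM in MCF-10A EV 1, 17054 TPM in MDA-MB-231 EV 1 and between 7316 and 30313 TPM in the other 7. The part of an acute phase response in the fibrinogen values was not tested. The library of each group with the lowest Fga (PBS 1, MCF-10A EV 3 and MDA-MB-231 EV 3) was the one with the highest Hc, as seen afterwards. At the other end this held only for MCF-10A EV 1. Fga was highest in PBS 2 and MDA-MB-231 EV 1 of their groups, but Hc was lowest in PBS 3 and MDA-MB-231 EV 2.

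**Figure D4:**
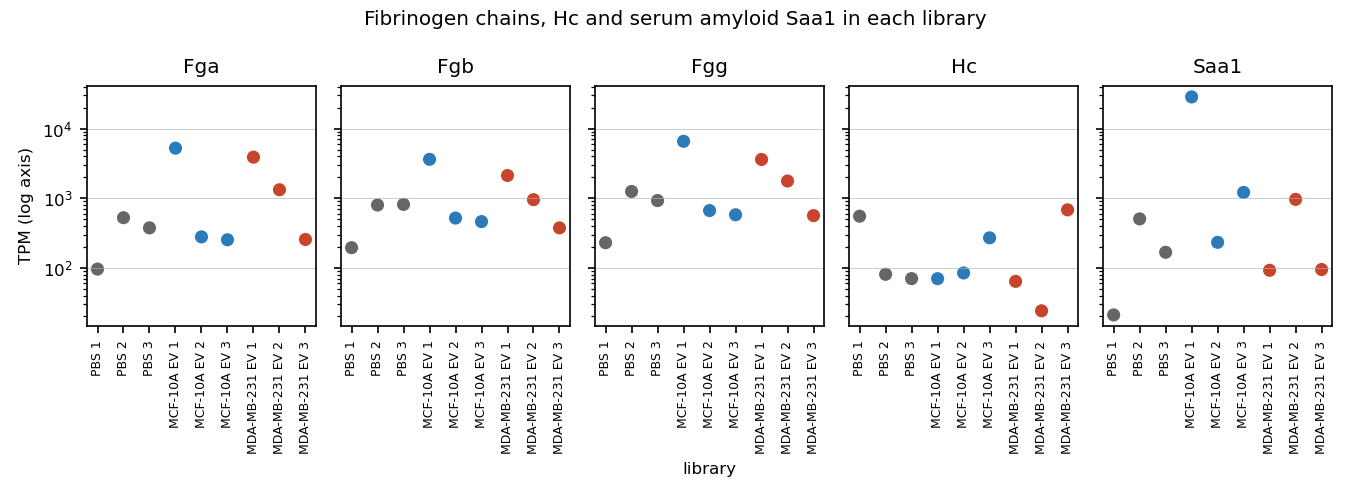
TPM on a log axis of the fibrinogen genes Fga, Fgb and Fgg, of the C5 gene Hc and of the serum amyloid gene Saa1 in each library (x axis; PBS grey, MCF-10A EV blue, MDA-MB-231 EV red). MCF-10A EV 1 is highest for fibrinogen and Saa1, MDA-MB-231 EV 1 is next for fibrinogen but holds 92.2 TPM of Saa1, and Hc is highest in PBS 1 and MDA-MB-231 EV 3.

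F13b, the carrier subunit of the fibrin-crosslinking factor XIII, had the smallest p of the coagulation members. F13b was at 12.02, 22.7 and 14.6 TPM after PBS, 52.9, 11.9 and 15.3 TPM after MCF-10A EVs and 119, 44.1 and 22.4 TPM after MDA-MB-231 EVs. MDA-MB-231 EV 1 stood above all others, and MDA-MB-231 EV 3 lay within the range of PBS. The change in MDA-MB-231 EV versus PBS was 1.57 ± 0.68 on the log2 scale (limma adjusted p = 1), and without MDA-MB-231 EV 1 it was 0.95. F13a1, the gene of the catalytic subunit that macrophages and platelets make, was read at 38.5 TPM in MCF-10A EV 1, 13.9 TPM in MDA-MB-231 EV 1 and at most 2.78 TPM in the others. F5 was at 32.8, 30.4 and 40.97 TPM after PBS, 50.6, 31.5 and 31.4 TPM after MCF-10A EVs and 119.9, 29.5 and 31.1 TPM after MDA-MB-231 EVs. F5, the gene of the thrombin-generating cofactor V, was likewise highest in MDA-MB-231 EV 1, followed by MCF-10A EV 1, and its change in MDA-MB-231 EV versus MCF-10A EV was 0.38 ± 0.54.

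Fibrinolysis and inhibitors had 4 of 4 members above 0 in both EV groups against PBS, beside the same 69.7% and 56.8% of all tested genes, and 0 past the threshold. Over the alternatives Serpind1 went as low as -0.39 in MCF-10A EV versus PBS and -0.038 in MDA-MB-231 EV versus PBS, and Serpinf2 as low as -0.13 in the first of these. Plasminogen, coded by Plg, dissolves fibrin once activated. Plg was at 270.3, 461 and 661 TPM after PBS, 1057, 898 and 809 TPM after MCF-10A EVs and 1812, 753 and 428 TPM after MDA-MB-231 EVs. All MCF-10A EV libraries lay above all PBS libraries, at 921 ± 126 against 464 ± 195 TPM (SD, n = 3), with a log2 change of 1.07 ± 0.56 (limma adjusted p = 1). MDA-MB-231 EV 3 lay within the PBS range, and the change in MDA-MB-231 EV versus PBS was 0.94 ± 0.56. Serpinc1 codes for antithrombin. Serpinc1 was at 736, 2209 and 2411 TPM after PBS, 2510, 2371 and 2420 TPM after MCF-10A EVs and 4444, 3290 and 1157 TPM after MDA-MB-231 EVs. PBS 1 and MDA-MB-231 EV 3 were its lowest libraries, and the log2 changes were 0.70 ± 0.61 for MDA-MB-231 EV versus PBS, 0.08 ± 0.61 for MDA-MB-231 EV versus MCF-10A EV and 0.63 ± 0.61 for MCF-10A EV versus PBS. Serpinf2 was at 209, 233 and 313 TPM after PBS, 502, 250.3 and 268 TPM after MCF-10A EVs and 773, 345 and 208 TPM after MDA-MB-231 EVs. Serpinf2, the gene of the plasmin inhibitor antiplasmin, had a log2 change of 0.62 ± 0.53 in MDA-MB-231 EV versus PBS and of 0.24 ± 0.53 against MCF-10A EV. Serpind1, the gene of heparin cofactor II, ranged from 69.9 to 409 TPM and was also highest in MDA-MB-231 EV 1.

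Complement was then set against coagulation. Summed over members, complement came to 10166, 12888 and 13447 TPM after PBS, 16174, 9702 and 11921 TPM after MCF-10A EVs and 13320, 16684 and 14451 TPM after MDA-MB-231 EVs. Coagulation came to 6322, 10126 and 10436 TPM after PBS, 25354, 9015 and 10089 TPM after MCF-10A EVs and 23626, 13784 and 9789 TPM after MDA-MB-231 EVs. Complement exceeded coagulation in 7 of 9 libraries, by a ratio of 1.08 to 1.61, and the ratio was 0.638 in MCF-10A EV 1 and 0.564 in MDA-MB-231 EV 1. Fibrinogen made up 60.9% and 40.7% of the coagulation sum in those libraries and between 8.22% and 29.3% in the rest. Without the fibrinogen chains, a choice made after seeing the data, the coagulation sum ran from 5802 to 14007 TPM and lay below the complement sum in every library but MDA-MB-231 EV 1. These sums rest on few genes: C3, C4b, Vtn and Cfb held between 61.1% and 80.8% of the complement sum. Among the coagulation members without fibrinogen, Kng1 and Serpinc1 had means of 2538 and 2394 TPM over the 9 libraries. The next highest mean there was that of Plg, at 794 TPM.

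**Figure D5:**
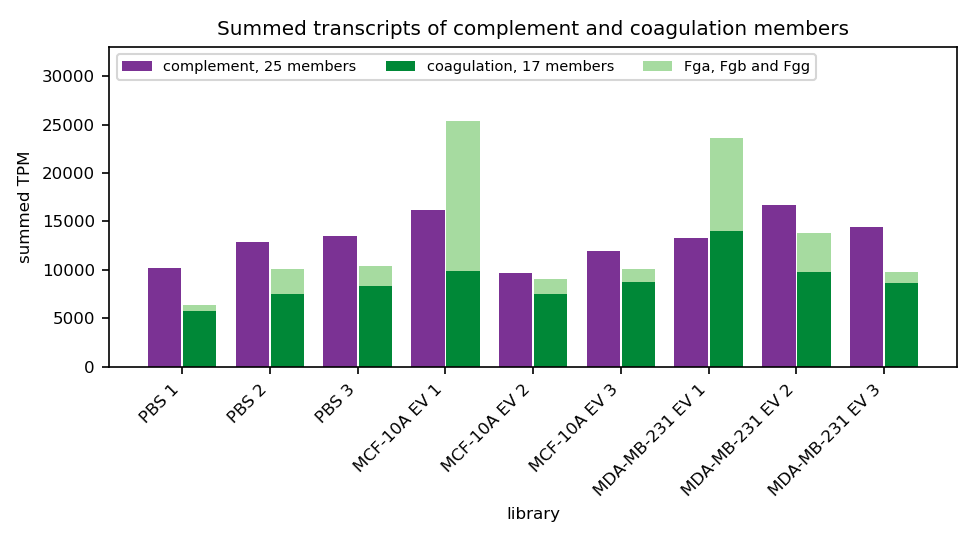
Summed TPM (y axis) of the 25 complement members (purple) and of the coagulation members (green, with Fga, Fgb and Fgg on top in light green) in each library (x axis). Complement is the taller bar in 7 of 9 libraries; in MCF-10A EV 1 and MDA-MB-231 EV 1 coagulation reaches 25354 and 23626 TPM.

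Gene by gene the 2 classes had near values, given here as descriptions with no test. In MDA-MB-231 EV versus PBS the median log2 change was 0.54 for complement (18 of 25 above 0) and 0.56 for coagulation (18 of 20), beside 0.21 and 69.7% above 0 over all tested genes. In MDA-MB-231 EV versus MCF-10A EV the medians were 0.07 (15 of 25) and 0.23 (15 of 20), beside 0.17 and 65.0%. In MCF-10A EV versus PBS they were 0.50 (18 of 25) and 0.33 (15 of 20), beside 0.07 and 56.8%. These medians shifted when single libraries were left out. Without PBS 1 they were 0.15 for complement and 0.39 for coagulation in MDA-MB-231 EV versus PBS, and 0.17 and 0.10 in MCF-10A EV versus PBS. Without MDA-MB-231 EV 1 those of MDA-MB-231 EV versus PBS were 0.28 and 0.30, and leaving out MDA-MB-231 EV 3 gave 0.55 and 0.86. Without MCF-10A EV 1 those of MCF-10A EV versus PBS were 0.075 and 0.021, and with array weights both turned below 0, to -0.055 and -0.12. In MDA-MB-231 EV versus MCF-10A EV the medians went to -0.16 and -0.052 without MDA-MB-231 EV 1, to 0.48 and 0.50 without MCF-10A EV 1, to -0.24 and 0.058 without MCF-10A EV 2 and to 0.25 and 0.56 without MDA-MB-231 EV 3. The complement median there was also below 0, at -0.093, without MCF-10A EV 3 and, at -0.10, without MDA-MB-231 EV 2. Size factors, which take the median of all genes to 0 in both MDA-MB-231 EV comparisons, gave -0.14 and 0.019 there, and members above 0 numbered 20 of 45 in place of 30. With them, 30 of 45 in place of 36 stood above 0 in MDA-MB-231 EV versus PBS. The class medians of that comparison were 0.30 and 0.31 with size factors and 0.23 and 0.31 with quantile normalization.

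By role, the highest median in MDA-MB-231 EV versus PBS belonged to fibrin formation, at 1.25 over 5 genes, followed by the complement regulators at 0.84 over 5. The lowest belonged to the terminal pathway, at -0.002 over 7, and to the contact system, at 0.17 over 5. In the terminal pathway C9, C8a and Hc lay between -0.58 and -0.51, C8g at -0.0022 and the untested C7 at -0.0017 lay at about 0, and C8b and C6 lay above it. The classical pathway stood at 0.60, C3 and the alternative pathway at 0.56, the lectin pathway at 0.34, the vitamin K dependent genes at 0.44 and fibrinolysis with inhibitors at 0.66. In MCF-10A EV versus PBS fibrin formation (0.92) and the regulators (0.74) were again the highest, and the contact system (-0.02) was the lowest, but with array weights 5 of 5 members of each of these 2 roles were below 0; both comparisons use the same PBS libraries. The order differed in MDA-MB-231 EV versus MCF-10A EV, with the vitamin K dependent genes highest at 0.47, fibrin formation at 0.38 and the regulators at 0.16, and the terminal pathway lowest at -0.19.

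Other genes of the cascades gave no call either. The complement context holds receptors, collectins, factor D (Cfd) and further regulators such as factor H. Of its 21 listed genes 18 were tested and 0 passed in each comparison. Its medians were 0.35, -0.09 and 0.32 in the order used above. Of the coagulation context, with tissue factor, factor VIII and the carboxylase Ggcx, 19 of 23 were tested and 0 passed, with medians of 0.35, 0.02 and 0.25. Factor VIII, from endothelium, was at 3.62 to 10.2 TPM over the libraries. Ggcx, which carboxylates the vitamin K dependent factors, was highest in MDA-MB-231 EV 1, at 23.3 TPM, as were 26.9% of all tested genes and 4 of the 6 vitamin K dependent members (F2, F7, F10 and Proc, not F9 and Pros1), and lay between 3.52 and 12.98 TPM elsewhere. The 17 acute phase genes had medians of 0.73, -0.83 and 1.35. In MDA-MB-231 EV versus MCF-10A EV 15 of 17 were below 0, where 65.0% of all tested genes were above 0. In MCF-10A EV versus PBS 17 of 17 were above 0, beside 56.8% of all tested genes. MCF-10A EV 1 stood apart in this list, which summed to 134172, 13853 and 30313 TPM after MCF-10A EVs and 7316 to 17788 TPM after PBS. The other 16 secreted hepatocyte proteins had medians of 0.19, 0.08 and 0.16.

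Markers of some other cells that could bring such transcripts stood out in single libraries. Platelet and megakaryocyte markers, 6 listed, summed to 149 TPM in MCF-10A EV 1 and to at most 23.8 TPM elsewhere. Erythroid markers in the same library summed to 14687 TPM against at most 3817 TPM elsewhere. Cholangiocyte markers, of interest for Clu, lay between 24.02 and 127 TPM, with Krt19, which defines these cells, at 0.240 TPM in MCF-10A EV 1 and at most 5.59 TPM in any library. Endothelial markers summed to 66.1 to 258 TPM, stellate markers to 60.05 to 323 TPM, and monocyte and dendritic markers to 1.71 to 10.3 TPM. The 6 endothelial and 7 stellate markers were all tested, and 0 passed the threshold. In MDA-MB-231 EV versus MCF-10A EV 6 of 6 and 7 of 7 were above 0, beside 65.0% of all tested genes. In MCF-10A EV versus PBS 0 of 6 and 0 of 7 were above 0, beside 56.8%. In MDA-MB-231 EV versus PBS 5 of 6 and 5 of 7 were, beside 69.7%. These comparisons share their groups in pairs. Markers of fat and mesothelium summed to 309.5 TPM in PBS 2 and at most 7.73 TPM elsewhere. Most of that sum was Cfd, the gene of complement factor D, which is also on the complement context list. It was at 285 TPM in PBS 2 and at most 5.30 TPM elsewhere. The part of these other cells in the members' values was not tested.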

How the data were processed

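RNA of 9 liver libraries, 3 per group, was sequenced after TruSeq library preparation, per the labels' protocols. The TPM values are used as the authors deposited them; the submitters' processing notes list HISAT2, StringTie, RSEM and build GRCm39 without versions or order. TPM keeps no read depth, so depth is unknown and no counting interval is given. MCF-10A EV libraries list every one of the 6059 assembled loci at 0, and these loci were left out. For the 12860 Ensembl features whose mean reached 1 TPM, log2(TPM + 1) was fitted with limma 3.58.1 (R 4.3.3): group means over all 9 libraries, trended prior variance, two-sided, Benjamini-Hochberg adjustment per comparison. The procedure was tested on simulated data with less spread than the measured libraries and with large planted changes. That test therefore does not tell how well changes of the size seen here would be found. Members, lists and tests were chosen with earlier results of these data known. Members named with values of every library are a fixed set of 20 and, per comparison, the 2 of each role with the smallest p (1 in roles of up to 3 genes). Medians over members include C7. Promoters are from RefSeq, GRCm38.p6. Alternatives were another pseudocount, filters, scalings, array weights, a replicate block and leaving out libraries.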

Additional observations from a re-analysis of the deposited data

How the results depend on the processing

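Over 19 alternatives no member was called in MDA-MB-231 EV versus PBS or MDA-MB-231 EV versus MCF-10A EV, and 1 was called in MCF-10A EV versus PBS. Of 2565 recomputed log2 changes of members, 2546 stayed within 1 SD (between the libraries of a group) of the value reported, 18 moved further and 1 became a call (C3 with array weights). Part of the 2546 could not move. The filters, the replicate block and leaving out a library of the group not compared return the same log2 change. For those settings the count is no measure of stability. The count of all genes called in MDA-MB-231 EV versus PBS, 0 as reported, was 28 without both PBS 1 and MDA-MB-231 EV 3 and 0 to 24 over single leave-outs (24 without PBS 1, 5 without MDA-MB-231 EV 3). In MDA-MB-231 EV versus MCF-10A EV, 28 became 11 with no filter, 17 with a minimum mean of 5 TPM, 46 with array weights, 14 without both MCF-10A EV 1 and MDA-MB-231 EV 1 (chosen after seeing the data) and 13 to 31 over single leave-outs (13 without MCF-10A EV 3, 15 without MCF-10A EV 2, 17 without MDA-MB-231 EV 2). In MCF-10A EV versus PBS, 25 became 40 with a pseudocount of 0.1, 12 with no filter, 548 with array weights, 85 and 13 without those pairs of libraries in the same order, and 14 to 59 over single leave-outs (59 without MDA-MB-231 EV 3, 54 without PBS 1, 14 without MCF-10A EV 3, 15 without PBS 3). Array weights moved the coagulation median to 0.65 in MDA-MB-231 EV versus MCF-10A EV. For MCF-10A EV versus PBS they moved both class medians to -0.055 (complement) and -0.12 (coagulation). Complement minus coagulation, the difference of the class medians, was -0.013 in MDA-MB-231 EV versus PBS, -0.25 without both PBS 1 and MDA-MB-231 EV 3, and -0.32 to -0.013 over single leave-outs, and it turned above 0 with array weights (0.0074) and without the fibrinogen genes (0.0097). In MDA-MB-231 EV versus MCF-10A EV it was -0.16, with -0.36 to -0.027 over single leave-outs. In MCF-10A EV versus PBS it was above 0, at 0.17, with 0.054 to 0.33 over all alternatives. The cause of these differences was not tested. The replicate block left 0 members called and 15 genes called in MDA-MB-231 EV versus MCF-10A EV. The samples share only a number: correlations of deviations from group means ran from -0.389 to 0.50 over 9 same-numbered pairs, with 4 above 0.1. Over 18 pairs of different number they ran from -0.595 to 0.625, with 8 above 0.1. Not every library correlated best with its own number. Depth is unknown, so low members such as C7 and C6 carry no counting error.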
